A study of Mus musculus with 8 samples.

Results

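The genes described here are 37 genes of the interferon response and of antigen presentation on major histocompatibility complex (MHC) class I, followed in the retinal pigment epithelium (RPE) of mice that lack *Bbs8* (gene symbol *Ttc8*). They were taken by name, from a list drawn up with earlier results of these data known, so the choice was not blind to the data. All 37 were found among the 31053 gene identifiers of the count files. In number they are 5 MHC class I chains, 3 genes of peptide loading, 5 of the immunoproteasome and its activator, 6 transcription factors and regulators, 2 cytosolic RNA sensors and 16 effectors that interferon induces. The RPE is the pigmented cell layer behind the photoreceptors, and BBS8 is a subunit of the BBSome, a protein complex that carries cargo in and out of cilia. RNA from isolated RPE at postnatal day 29 (P29) was sequenced from the 3′ end of polyadenylated transcripts, so that counts do not scale with transcript length, in 4 wild-type (*Bbs8*+/+) and 4 knockout (*Bbs8*-/-) libraries. Each library was labelled as a biological replicate, the strain was C57/Bl6 for both genotypes, no animal received a treatment, and sex was not determined. The knockout is constitutive, so every cell type of the eye carried the deletion. The comparison asks whether RPE without the ciliary protein differed from wild-type RPE in these genes at this age.

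Interferons are secreted signals of infection and tissue stress. Type I interferons act through the receptor chains IFNAR1 and IFNAR2, type II interferon through IFNGR1 and IFNGR2, and both use JAK kinases and STAT factors to reach the nucleus. There, a complex that holds STAT2 and IRF9 binds the interferon-stimulated response element (ISRE), and the gamma-activated site (GAS) is the element of the type II response. Among the induced genes are antiviral effectors and the machinery that cuts proteins in the proteasome, carries the peptides into the endoplasmic reticulum through the TAP1-TAP2 transporter, and shows them at the cell surface on MHC class I with its light chain β2-microglobulin. The RPE forms part of the blood-retina barrier, and ocular tissues are known for low levels of these genes at rest.

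The cores of both motifs were searched on both strands of RefSeq promoter windows (build GRCm38.p6, 250 bases before to 50 after each start site), which were at hand for 31 of the 37 genes. No window was at hand for *Tap2*, *Nlrc5*, *Rtp4*, *Ifi27*, *Usp18* and *Parp14*. The ISRE core was taken as GAAANNGAAA and the GAS core as TTCNNNGAA, which reads the same way on both strands. The ISRE core was present in 14 of the 31 genes (45.2%), and in 3.99% of all 27025 genes with a window. The GAS core was present in 7 of the 31 genes (22.6%), and in 9.55% of all genes. Of the 6 genes with a window that later passed the test for a higher level in the knockout, 3 held an ISRE core (*B2m*, *Gbp3* and *Psme1*), and 10 of the 23 tested genes with a window that did not pass held one too. The matches are given for these letters alone, and say nothing about binding in these samples.

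The windows below lie before the start site and are shown for a pair of genes that were higher in the knockout (*B2m*, *Gbp3*), for 4 classical interferon-induced genes and *Gbp2* that did not pass the test, and for *Irf1*, whose window holds a GAS core. Each is written 5′ to 3′ on the strand of its gene, with the motif in capitals; an ISRE core on the other strand appears as its reverse complement.
B2m, chr2:122147523-122147582, plus strand: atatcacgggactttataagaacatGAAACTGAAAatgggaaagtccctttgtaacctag
Gbp3, chr3:142559974-142560039, plus strand: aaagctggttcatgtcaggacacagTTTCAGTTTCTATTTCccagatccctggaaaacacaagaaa
Gbp2, chr3:142620579-142620638, plus strand: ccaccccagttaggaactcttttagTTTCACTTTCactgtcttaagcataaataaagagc
Isg15, chr4:156200850-156200921, minus strand: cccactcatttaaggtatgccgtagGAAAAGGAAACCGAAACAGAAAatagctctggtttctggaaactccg
Bst2, chr8:71537562-71537627, minus strand: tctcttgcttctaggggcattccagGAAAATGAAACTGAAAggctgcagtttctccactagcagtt
Ifit1, chr19:34640760-34640838, plus strand: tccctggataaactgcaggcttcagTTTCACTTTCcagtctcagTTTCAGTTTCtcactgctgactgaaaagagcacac
Ifit3, chr19:34583348-34583441, plus strand: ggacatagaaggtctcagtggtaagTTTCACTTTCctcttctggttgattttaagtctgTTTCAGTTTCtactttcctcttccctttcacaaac
Irf1, chr11:53769899-53769957, plus strand: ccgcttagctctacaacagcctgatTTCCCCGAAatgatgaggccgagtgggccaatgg
The copies overlap each other in *Gbp3* and *Bst2*, where 2 cores share 4 bases, and in *Isg15*, where 3 cores run on from each other. In *Bst2* a GAS core also overlaps the first ISRE core. *Ifit1* and *Ifit3* each hold 2 separate cores. The ISRE core of *Psme1* and the GAS core of *Ifi35* lie after the start site, at bases 10 to 19 and 8 to 16, and are not printed.

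*Ttc8*, the gene deleted in the knockout, was counted 105, 142, 144 and 116 times in wild-type libraries and 15, 5, 14 and 15 times in knockout libraries. Its log2 fold change of the knockout over the wild type was -3.34 ± 0.29 (SE worked back from the test statistic, as for all log2 fold changes here, n = 4 per group, edgeR adjusted p = 2.5e-11), so every library matched its label. The libraries held 2389835 to 3093428 counts assigned to genes. Levels are given in CPM, the count of a gene relative to its library total after trimmed-mean scaling (TMM). A count of 0 allows up to 3 counts, or 1.02 to 1.23 CPM by library, which covers counting error only. A gene was tested if it reached 1 CPM, without that scaling, in at least 4 of the 8 libraries, which 12889 genes did, and a difference was called at an adjusted p below 0.05 in edgeR's quasi-likelihood test over all of them. Of the RPE genes, *Rpe65* was abundant in both groups but lower in the knockout (4360 to 4849 CPM in the wild type, 3866 to 3952 CPM in the knockout, log2 fold change -0.24 ± 0.05, adjusted p = 4.7e-04), and *Best1* was at 0 to 2.0 CPM. Marker genes of neighbouring tissues were present and differed as well. The summed level of 10 rod genes was 51077 to 54692 CPM in the wild type and 21009 to 21743 CPM in the knockout, that of 10 lens genes 2216 to 2347 and 331 to 370 CPM, and that of 5 erythrocyte genes 5152 to 5717 and 1985 to 2217 CPM (exact permutation test, two-sided, p = 0.0286 for each, the smallest that 4 against 4 libraries can give). Leaving these 25 genes out of the scaling left the same 7 genes of the list higher in the knockout. Their part in the results was otherwise not tested. In bulk samples, fewer cells of a type and less RNA per cell cannot be told apart.

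Of the 37 genes, 33 were tested. In the knockout 7 were higher (21.2% of those tested, against 5.46% of all tested genes) and 0 were lower (against 6.8%). The 7 were *B2m*, *H2-K1*, *Tap2*, *Psme1*, *Irf9*, *Ifi35* and *Gbp3*, spread over 5 of the 6 roles. At an unadjusted p below 0.05 the counts were 10 higher (30.3%, against 11.3% of all tested genes) and 0 lower (against 12.1%). All 4 knockout libraries lay above all 4 wild-type libraries for 9 of the genes, where 7.42% of all tested genes did so, and lay below them for 0, where 8.62% did so. DESeq2 called the same 7 genes higher and 0 lower, while it called 5.84% of all genes with an adjusted p higher and 7.1% lower. The median log2 fold change was 0.44 over the 33 genes and 0.02 over all tested genes, and 26 of the 33 had a positive value. The filter counted libraries of both genotypes. Each of the 33 reached 1 CPM, before TMM scaling as in the filter, in at least 1 wild-type library, and 24 of them did so in all 8 libraries. *H2-Q4*, *Tap2*, *Psmb8*, *Ifit2*, *Isg15* and *Gbp2* fell below 1 CPM in at least 1 wild-type library. They therefore needed knockout libraries to pass the filter, and each had a positive log2 fold change.

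**Figure D1:**
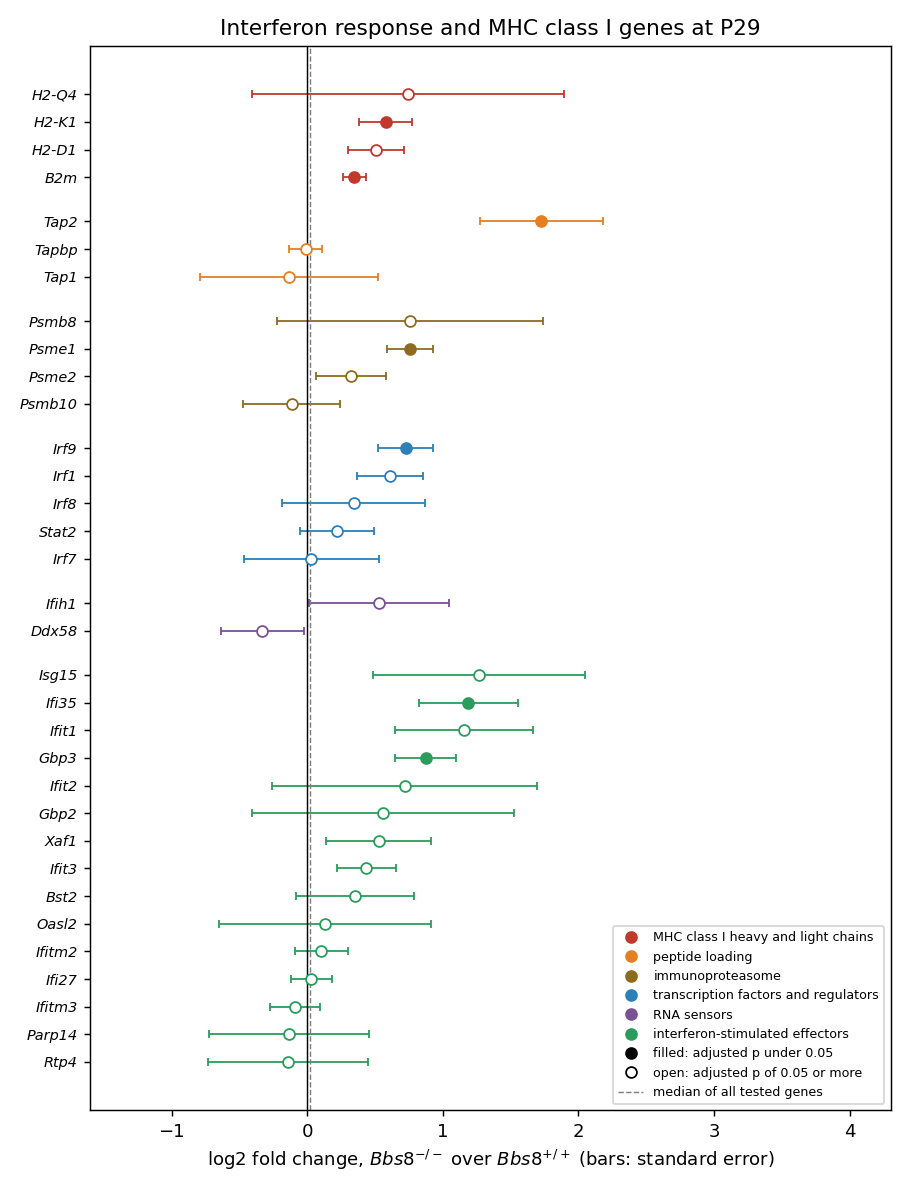
Log2 fold change of *Bbs8*-/- over *Bbs8*+/+ (x axis, with standard error bars, 4 libraries per group) for the 33 tested genes, ordered by role (colours) and by size within a role. Filled points, 7 in number, passed an adjusted p of 0.05 and all lie to the right of 0, while the open points run from -0.33 (*Ddx58*) to 1.27 (*Isg15*) and those with long bars are genes of few counts.

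The median of the 33 genes lay above the wild-type reference in each knockout library, though less in replicate 1. These values only describe a list chosen with earlier results known. The genes that needed knockout libraries to pass the filter are among the 33. Taking the wild-type mean of each gene as the reference, the median gene of the 33 stood at 0.21, 0.43, 0.44 and 0.43 (log2) in *Bbs8*-/- replicates 1 to 4, where the median of all tested genes stood between 0.01 and 0.03. In the wild-type libraries the same median lay between -0.11 and 0.06. The number of the 33 genes above the wild-type mean was 19, 27, 25 and 27 in the knockout libraries and 19, 18, 15 and 14 in the wild-type libraries, so *Bbs8*-/- replicate 1 stood no higher by this count than *Bbs8*+/+ replicate 1. The call for 7 genes moved with single libraries: it fell to 4 without *Bbs8*-/- replicate 4 and reached 8 without *Bbs8*+/+ replicate 3.

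**Figure D2:**
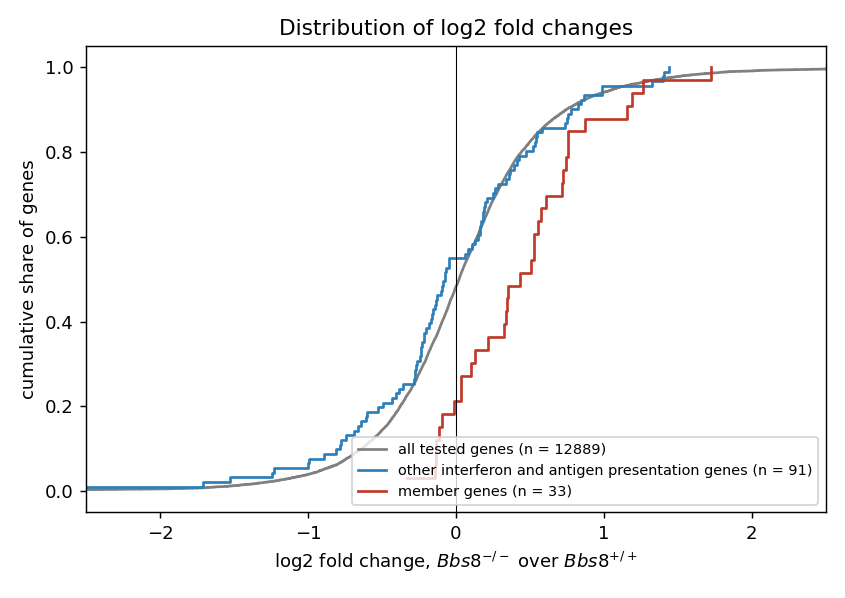
Cumulative share of genes (y axis) by log2 fold change of *Bbs8*-/- over *Bbs8*+/+ (x axis) for the 33 tested genes of the list, 91 other genes of interferon signalling and antigen presentation, and all 12889 tested genes. The curve of the 33 genes lies to the right of the other curves over most of its range (median 0.44 against -0.08 and 0.02). Both gene lists were drawn up with earlier results of these data known.

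The MHC class I chains were higher in the knockout as a summed level, most of which was *B2m*. *B2m* encodes β2-microglobulin, the chain that all class I molecules share, and lies at chr2:122147686-122153083 (plus strand). It measured 337, 373, 363 and 410 CPM in the wild type and 478, 468, 487 and 454 CPM in the knockout. Every knockout library lay above every wild-type library, the mean rising from 371 ± 30.2 to 472 ± 14.3 CPM (SD, n = 4 each), 1.27-fold (log2 fold change 0.35 ± 0.08 SE, edgeR adjusted p = 0.0030). *H2-K1*, a classical heavy chain at chr17:33996017-34000347 (minus strand), measured 31.5, 26.9, 45.0 and 27.5 CPM in the wild type and 52.6, 46.6, 46.8 and 48.9 CPM in the knockout. It rose 1.49-fold (log2 fold change 0.58 ± 0.19, adjusted p = 0.043) with a narrow gap, since *Bbs8*+/+ replicate 3 nearly reached the lowest knockout library. That call passed without *Bbs8*+/+ replicate 3 and was lost when any one of the other 7 libraries was left out (adjusted p up to 0.142).

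*H2-D1*, the other classical heavy chain, had the same order of libraries in the wild type, with replicate 3 the highest at 45.0 CPM and the others at 24.2 to 29.1 CPM. The knockout libraries measured 35.3, 42.3, 46.8 and 52.4 CPM, so the groups overlapped, and the log2 fold change of 0.51 ± 0.21 did not pass (adjusted p = 0.12). Without *Bbs8*+/+ replicate 3 it did (0.72, adjusted p = 0.028). Of the non-classical chains, *H2-Q4* had at most 2.45 CPM in any library (log2 fold change 0.74 ± 1.15, adjusted p = 0.77), and *H2-T23*, which encodes Qa-1, had 2 counts in *Bbs8*-/- replicate 1 and 0 in the others, and was not tested. Summed, the 5 chains measured 398 to 465 CPM in the wild type and 557 to 582 CPM in the knockout. The class I heavy chains resemble each other in sequence: of the 100-base windows in the last 500 bases of their transcripts, 1.46% in *H2-K1*, 8.13% in *H2-D1* and 4.61% in *H2-Q4* also occur in another gene, while *B2m* shares 0. Reads that mapped to more than 1 place were left out of the deposited counts, so the heavy chain levels are less certain than that of *B2m*.

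Of the peptide loading genes, *Tap2* changed and its partner *Tap1* did not pass the test. *Tap2*, one subunit of the peptide transporter (chr17:34203527-34216321, plus strand), had 3, 11, 10 and 17 counts in the wild type and 20, 44, 44 and 28 in the knockout. In CPM these were 1.02, 4.10, 4.09 and 6.32 against 8.21, 15.8, 17.6 and 9.78. The groups did not overlap, and the 3.31-fold difference was the largest among the 7 called genes (log2 fold change 1.73 ± 0.45, adjusted p = 0.0075), although it rests on few counts. *Tap1*, the other subunit, which lies on the same chromosome, measured 3.05, 4.10, 3.27 and 4.83 CPM in the wild type and 1.23, 4.66, 4.80 and 3.14 CPM in the knockout. Its log2 fold change was -0.13 ± 0.65 (adjusted p = 0.94), so the difference between the subunits carries a wide error and was not tested. *Tapbp*, encoding tapasin, which bridges the transporter and the class I molecule, measured 107 to 134 CPM in the wild type and 103 to 128 CPM in the knockout (log2 fold change -0.01 ± 0.12, adjusted p = 0.97). It shares exon sequence on its strand with *Zbtb22*. That gene had 514 counts in the wild-type libraries together and 461 in the knockout libraries (log2 fold change -0.14 ± 0.19, adjusted p = 0.73). *Tap2* has exons opposite to those of *Gm15821* and *Gm20496*, each of which had 0 counts in all 8 libraries, as did *Gm11626*, opposite to *Ifi35*.

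In the immunoproteasome group, 1 of the 4 tested genes, a subunit of the activator, was higher in the knockout (25%, against 5.46% of all tested genes). *Psme1* encodes PA28α, part of the ring that opens the proteasome (chr14:55578123-55581529, plus strand), and measured 53.5, 45.5, 33.5 and 59.8 CPM in the wild type and 78.8, 78.1, 69.2 and 99.6 CPM in the knockout. The groups did not overlap, and the gene rose 1.69-fold (log2 fold change 0.76 ± 0.17, adjusted p = 0.0013). *Psme2*, encoding the partner PA28β, measured 15.1 to 29.4 and 15.6 to 30.1 CPM (log2 fold change 0.32 ± 0.26, adjusted p = 0.51). Of its end windows 21% also occur in *Psme2b*, which had 6 counts in the wild-type libraries together and 21 in the knockout libraries, 15 of them in replicate 4.

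The catalytic subunits that interferon induces are *Psmb8*, *Psmb9* and *Psmb10*. *Psmb10* measured 5.95 to 17.9 CPM in the wild type and 8.80 to 12.9 CPM in the knockout (log2 fold change -0.12 ± 0.36, adjusted p = 0.90). *Psmb8* ranged from 0 to 4.66 CPM over the 8 libraries (log2 fold change 0.76 ± 0.98, adjusted p = 0.72), and *Psmb9* had 1, 0, 2 and 3 counts in the wild type and 8, 4, 1 and 2 in the knockout, and was not tested. *Psmb8* and *Psmb9* were thus measured on few counts, and the standard error of *Psmb8* leaves room for sizeable differences in either direction. Their constitutive counterparts did not pass the test either: the log2 fold change of *Psmb5* was -0.64 ± 0.26 (adjusted p = 0.12), with all knockout libraries (11.6 to 18.6 CPM) below the wild-type libraries (19.0 to 28.1 CPM), that of *Psmb6* -0.09 ± 0.10 (adjusted p = 0.65) and that of *Psmb7* 0.29 ± 0.13 (adjusted p = 0.18). *Emc9*, on the strand opposite to *Psme1*, had 76 counts in the wild-type libraries together and 113 in the knockout libraries (log2 fold change 0.59 ± 0.40, adjusted p = 0.41).

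**Figure D3:**
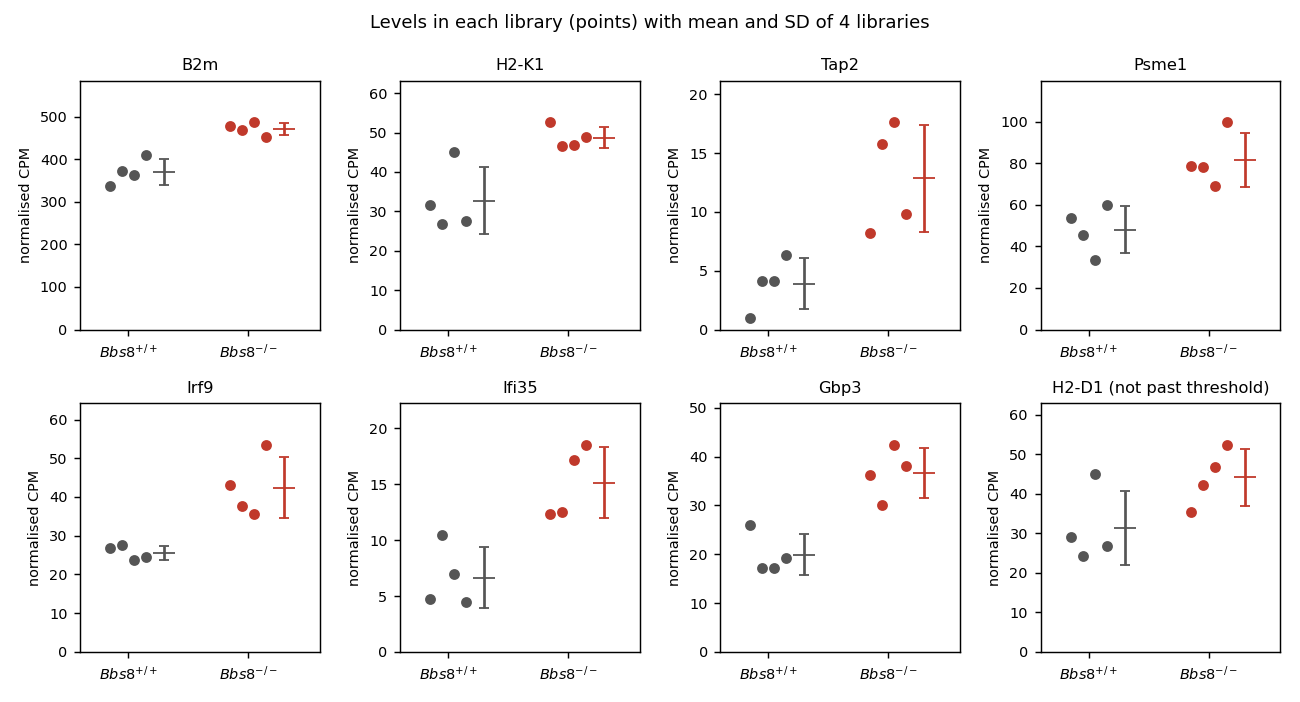
Normalised CPM (y axis, from 0) in each of the 4 *Bbs8*+/+ and 4 *Bbs8*-/- libraries (points), with mean and SD to the right, for the 7 genes that passed the test and for *H2-D1*, which did not. In the 7 genes all knockout points lie above all wild-type points, while in *H2-D1* the wild-type library at 45.0 CPM reaches into the knockout range.

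Among the transcription factors, *Irf9* was higher in the knockout. It encodes the DNA-binding subunit of the ISRE complex (chr14:55603571-55610030, plus strand) and measured 26.7, 27.6, 23.7 and 24.5 CPM in the wild type and 43.1, 37.6, 35.6 and 53.5 CPM in the knockout. The wild-type libraries were close together, and the lowest knockout library stood clear of them. The fold change was 1.65 (log2 fold change 0.73 ± 0.20, adjusted p = 0.013), and the call was lost without the highest knockout library, replicate 4 (0.60, adjusted p = 0.079). *Irf9* shares exon sequence on its strand with *Rnf31*, whose reads could be counted for neither or either gene; *Rnf31* had 101 counts in the wild-type libraries together and 67 in the knockout libraries (log2 fold change -0.58 ± 0.42, adjusted p = 0.44). Reads that fell in more than 1 gene were 0.244 to 0.296% of each library.

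*Irf1*, a factor downstream of type II interferon that acts on class I genes, had non-overlapping groups, at 15.9, 19.4, 24.1 and 14.9 CPM in the wild type and 30.4, 30.5, 27.6 and 24.8 CPM in the knockout. Its log2 fold change of 0.61 ± 0.24 passed at an unadjusted p below 0.05 but not after adjustment (edgeR adjusted p = 0.099). *Stat2*, the partner of IRF9, measured 12.3 to 21.9 and 14.0 to 26.0 CPM (log2 fold change 0.22 ± 0.27, adjusted p = 0.71). *Irf7*, which amplifies type I interferon production, measured 3.68 to 11.5 and 3.94 to 8.21 CPM (0.03 ± 0.50, adjusted p = 0.98), and *Irf8*, a factor of the myeloid lineage, 3.72 to 4.91 and 3.20 to 7.80 CPM (0.34 ± 0.53, adjusted p = 0.77). *Nlrc5*, the transactivator of class I genes, had 6 counts in *Bbs8*+/+ replicate 2, 1 in *Bbs8*-/- replicate 3 and 0 elsewhere, so it could not be tested. The summed level of the 6 factors was 68.8 to 75.6 CPM in the wild type and 98.5 to 110 CPM in the knockout. Most of that sum came from *Irf9* (mean 25.6 and 42.5 CPM) and *Irf1* (mean 18.6 and 28.3 CPM).

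The RNA sensors did not pass in either direction. *Ddx58*, encoding RIG-I, measured 12.7 to 19.6 CPM in the wild type and 7.88 to 17.8 CPM in the knockout (log2 fold change -0.33 ± 0.30, adjusted p = 0.58). For *Ifih1*, encoding MDA5, the values were 1.49 to 8.99 and 4.40 to 12.2 CPM (0.53 ± 0.52, adjusted p = 0.60). The groups overlapped in both genes.

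Of the 15 tested effectors, *Ifi35* and *Gbp3* were higher in the knockout (13.3%, against 5.46% of all tested genes) and 0 were lower (against 6.8%). *Gbp3*, an interferon-induced guanylate-binding protein (chr3:142560026-142573209, plus strand), measured 26.1, 17.2, 17.2 and 19.3 CPM in the wild type and 36.1, 30.1, 42.4 and 38.1 CPM in the knockout, 1.83-fold higher (log2 fold change 0.87 ± 0.22, adjusted p = 0.0062). *Ifi35*, an interferon-induced leucine zipper protein (chr11:101448407-101458698, plus strand), measured 4.74, 10.4, 6.95 and 4.46 CPM in the wild type and 12.3, 12.5, 17.2 and 18.5 CPM in the knockout. The groups lay close at their edges, and the 2.28-fold rise (1.19 ± 0.36, adjusted p = 0.025) was lost when *Bbs8*+/+ replicate 1 or 4 or *Bbs8*-/- replicate 3 or 4 was left out (adjusted p up to 0.098). *Gbp2*, a paralogue of *Gbp3* that lies on the same chromosome and also holds an ISRE core (above), was near the floor at 0 to 5.08 CPM in the wild type and 0.358 to 6.0 CPM in the knockout (0.56 ± 0.96, adjusted p = 0.80).

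The IFIT proteins bind foreign RNA and block its translation. *Ifit1* had 4.06, 4.48, 2.04 and 2.97 CPM in the wild type and 9.03, 6.81, 6.0 and 8.74 CPM in the knockout, so that the groups did not overlap, but the log2 fold change of 1.16 ± 0.51 passed at an unadjusted p below 0.05 alone (edgeR adjusted p = 0.15). *Ifit3* measured 22.1 to 30.1 and 28.7 to 41.9 CPM (0.44 ± 0.22, adjusted p = 0.22), with an overlap of 1 wild-type library with the knockout range. Its copy *Ifit3b*, which shares 4.24% of the end windows of *Ifit3*, measured 12.3 to 15.5 and 7.39 to 17.2 CPM (-0.10 ± 0.31, adjusted p = 0.90). *Ifit2* was at 0 to 2.45 and 0 to 5.20 CPM (0.72 ± 0.98, adjusted p = 0.74).

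*Isg15*, a ubiquitin-like protein that is among the classical interferon-induced genes, had 2.03, 0.746, 0.818 and 3.34 CPM in the wild type and 1.64, 2.87, 4.80 and 7.69 CPM in the knockout. The largest positive value among the genes that did not pass was its own (log2 fold change 1.27 ± 0.78, adjusted p = 0.35), on few counts and with overlapping groups. *Usp18*, the protease that removes ISG15 and damps the type I receptor, had 10 counts in *Bbs8*-/- replicate 1 and at most 3 in any other library, and was not tested. *Oasl2*, of the oligoadenylate synthetase family, ranged from 0.411 to 7.88 CPM (0.13 ± 0.78, adjusted p = 0.95).

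Several effectors measured at higher counts had small values. *Ifi27* measured 56.8 to 71.2 CPM in the wild type and 59.1 to 74.8 CPM in the knockout (log2 fold change 0.03 ± 0.15, adjusted p = 0.94). *Ifitm3*, which restricts the entry of viruses, measured 39.6 to 44.8 and 31.6 to 47.9 CPM (-0.09 ± 0.19, adjusted p = 0.83), and *Ifitm2* 31.6 to 38.0 and 29.0 to 44.0 CPM (0.10 ± 0.20, adjusted p = 0.82). Of the end windows of *Ifitm2*, 22.2% occur in other genes, so its level is less certain. At lower counts, *Bst2*, or tetherin, which holds budding virus at the cell surface, measured 4.09 to 10.2 and 5.20 to 10.7 CPM (0.35 ± 0.43, adjusted p = 0.70).

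The remaining effectors overlapped between the groups. *Xaf1*, a pro-apoptotic factor, measured 4.50 to 10.07 CPM in the wild type and 6.40 to 12.3 CPM in the knockout (log2 fold change 0.53 ± 0.39, adjusted p = 0.46). *Parp14*, an ADP-ribosyltransferase, ranged from 3.39 to 6.71 and from 0.411 to 10.8 CPM (-0.13 ± 0.59, adjusted p = 0.93), and *Rtp4* from 3.72 to 8.12 and from 0.411 to 9.32 CPM (-0.14 ± 0.59, adjusted p = 0.93). In both genes and in *Oasl2* the lowest of all 8 values was that of *Bbs8*-/- replicate 1. Over the 16 effectors the summed level was 211 to 244 CPM in the wild type and 266 to 294 CPM in the knockout.

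**Figure D4:**
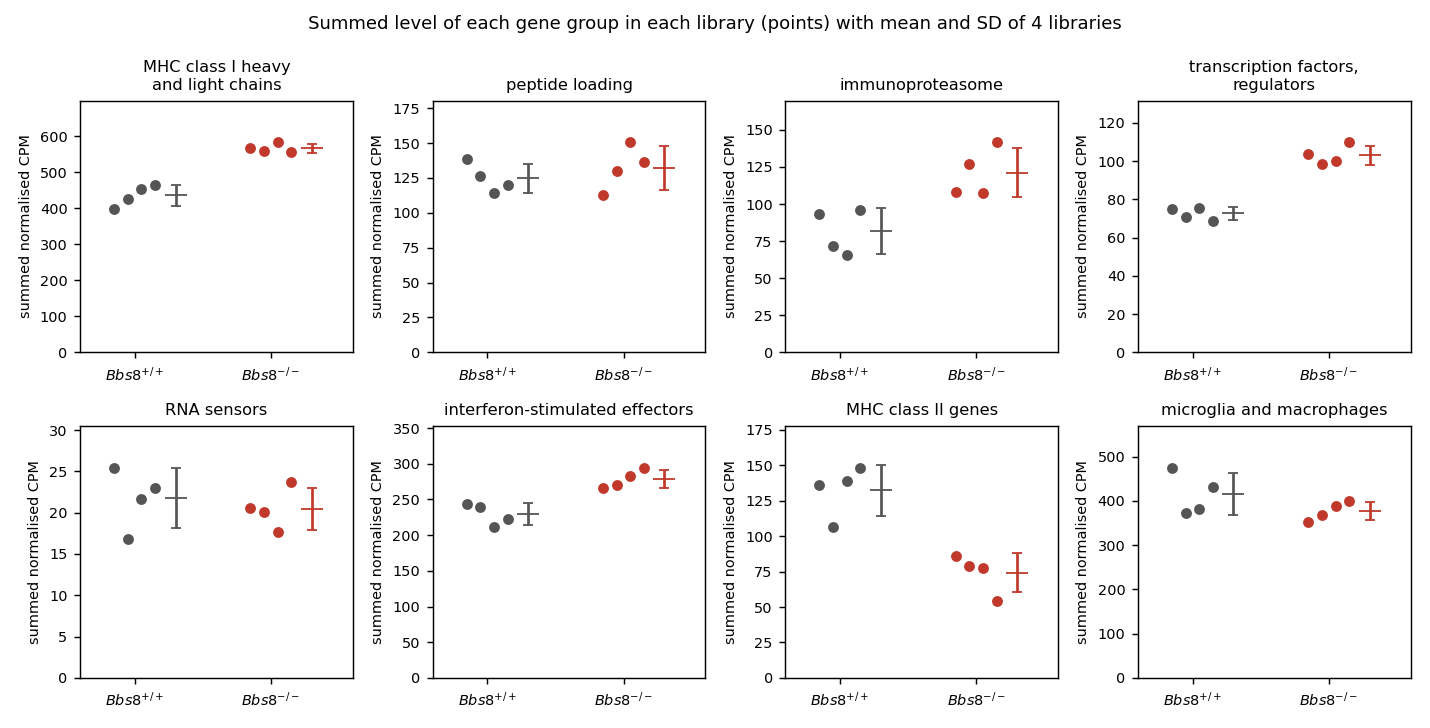
Summed normalised CPM (y axis, from 0) of the genes of each role, of 11 MHC class II genes and of 18 microglia and macrophage markers in each library (points), with mean and SD of 4 libraries per genotype. The knockout points lie above the wild-type points for the class I chains (557 to 582 against 398 to 465 CPM), the immunoproteasome with its activator, the transcription factors and the effectors. They overlap for peptide loading, RNA sensors and microglia markers, and lie below for MHC class II (54.5 to 86.2 against 107 to 148 CPM). Most of the immunoproteasome sum is the activator subunit *Psme1* (mean 48.1 and 81.4 CPM), while the catalytic subunits did not pass or were not tested.

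The rest of the pathway was followed in 158 further genes, of which 152 were matched by symbol and 91 tested. Of these 4 were higher and 6 lower in the knockout, shares of 4.40% and 6.59% against the 5.46% and 6.8% of all tested genes. Their median log2 fold change was -0.08, beside 0.44 for the 33 genes above and 0.02 for all. Both lists were drawn up with earlier results of these data known. The contrast may therefore depend on how genes were sorted between them, and was not tested. The 4 higher calls became 2 without *Bbs8*+/+ replicate 4.

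No interferon was measured at a level that could be tested: 12 of 13 ligand genes had 0 counts in all 8 libraries, and *Ifng* had 4 counts, all in *Bbs8*-/- replicate 2. A count of 0 allows up to 1.23 CPM in the shallowest library. Of the receptors, *Ifnar2* measured 17.5 to 26.9 CPM in the wild type and 27.2 to 32.0 CPM in the knockout (log2 fold change 0.47 ± 0.23, adjusted p = 0.20), and *Ifnar1* (0.41 ± 0.34, adjusted p = 0.53), *Ifngr1* (-0.52 ± 0.30, adjusted p = 0.31) and *Ifngr2* (0.11 ± 0.44, adjusted p = 0.93) did not pass.

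Inside the cell, *Socs3*, a feedback inhibitor of JAK-STAT signalling, rose from 33.2, 52.6, 62.1 and 62.4 CPM to 109, 140, 134 and 142 CPM, 2.51-fold (log2 fold change 1.32 ± 0.16, adjusted p = 2.7e-08). *Jak1*, a kinase that both receptor complexes use, measured 152 to 187 CPM in the wild type and 83.2 to 117 CPM in the knockout and fell by 0.61 ± 0.12 on the log2 scale (adjusted p = 3.8e-04). Neither pair of groups overlapped. Of the 13 tested genes of interferon receptors and JAK-STAT signalling, 1 was called higher and 1 lower (7.69% each, against 5.46% and 6.8% of all tested genes). *Socs1*, another feedback inhibitor, had few counts and did not pass (log2 fold change -0.24 ± 0.82, adjusted p = 0.91).

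Among 42 further interferon-induced genes that were tested, 2 were higher and 1 lower. These shares of 4.76% and 2.38% lay below the 5.46% and 6.8% of all tested genes. *Gbp7*, another guanylate-binding protein, measured 19.3 to 31.1 CPM in the wild type and 34.2 to 54.6 CPM in the knockout (log2 fold change 0.76 ± 0.21, adjusted p = 0.013), and lost the call without *Bbs8*+/+ replicate 4 or *Bbs8*-/- replicate 1 (adjusted p up to 0.069). *Lgals3bp*, a secreted glycoprotein, measured 77.6 to 86.7 and 108 to 144 CPM (0.53 ± 0.13, adjusted p = 0.0033). *Trafd1*, a negative regulator of innate signalling, measured 120 to 193 CPM in the wild type and 62.4 to 89.1 CPM in the knockout, 0.501 of the wild-type level (-1.0 ± 0.14, adjusted p = 1.2e-06).

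The list of other MHC class I and related genes gave 0 calls among 4 tested, and nucleic acid sensing 0 among 6. Of all tested genes 5.46% were higher and 6.8% lower. The 4 were *H2-T22* (log2 fold change -0.05 ± 0.62, few counts), *H2-Ke6* (-0.13 ± 0.17), *Mr1* (-0.07 ± 0.24) and *Fcgrt* (-0.08 ± 0.24). *H2-Ke6* does not encode a class I chain, and *Mr1* and *Fcgrt* encode class I-like chains. Of 16 other antigen processing genes, *Tapbpl*, a tapasin-related peptide editor, was higher (1.49 to 6.95 against 5.34 to 16.0 CPM, overlapping, log2 fold change 1.40 ± 0.47, adjusted p = 0.045). *Creb1*, a factor of general use that also binds MHC promoters, was lower (88.7 to 117 against 63.2 to 95.3 CPM, overlapping, -0.41 ± 0.14, adjusted p = 0.049). Each of these calls was lost in 6 of the 8 fits that left out 1 library (adjusted p up to 0.189 and 0.176): for *Tapbpl* all but those without *Bbs8*+/+ replicate 3 or *Bbs8*-/- replicate 1, and for *Creb1* all but those without *Bbs8*+/+ replicate 1 or *Bbs8*-/- replicate 2. *Creb1* did not pass with DESeq2 (adjusted p = 0.052) or under scaling by library size (adjusted p = 0.15).

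**Figure D5:**
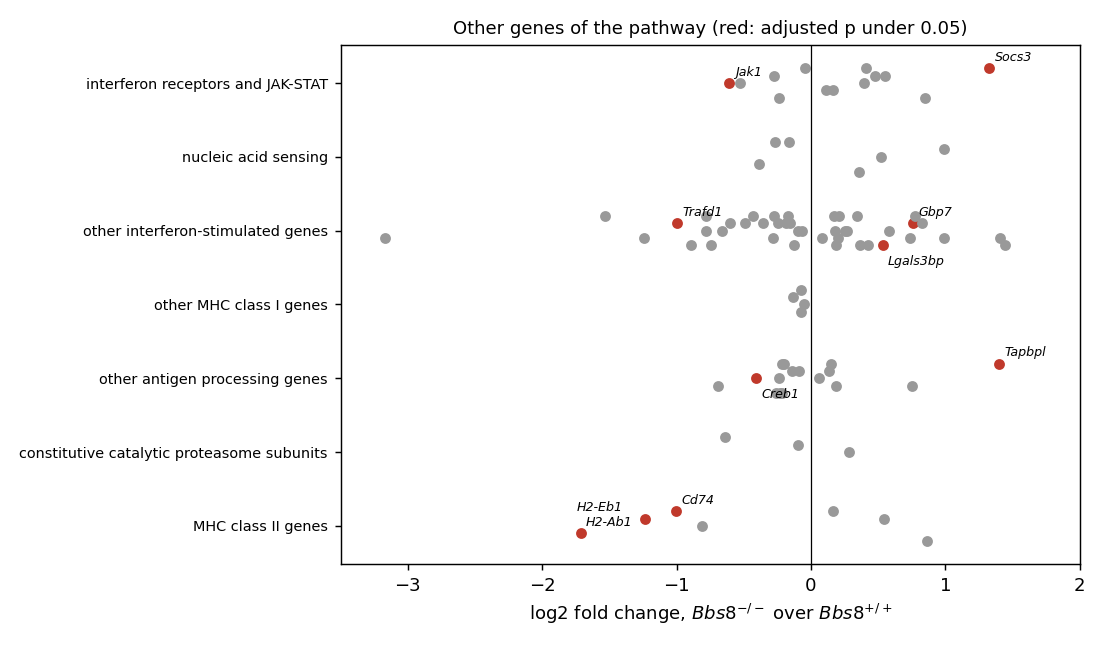
Log2 fold change of *Bbs8*-/- over *Bbs8*+/+ (x axis) for the 91 tested genes of the wider pathway, 1 point per gene, in rows by list. Red points, named, passed an adjusted p of 0.05: 4 lie to the right of 0 and 6 to the left, among them 3 MHC class II genes.

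MHC class II, which presents peptides from outside the cell and is a feature of myeloid and other antigen-presenting cells, had 3 lower and 0 higher genes among 7 tested. The share of lower genes was 42.9%, against 6.8% of all tested genes, while 5.46% of all tested genes were higher. *H2-Ab1*, a class II β chain, measured 24.4, 24.6, 25.3 and 33.8 CPM in the wild type and 10.7, 7.17, 10.0 and 5.24 CPM in the knockout (log2 fold change -1.71 ± 0.29, adjusted p = 3.6e-05). *H2-Eb1*, another β chain, measured 25 to 28.4 and 9.03 to 13.2 CPM (-1.23 ± 0.26, adjusted p = 8.1e-04). *Cd74*, the invariant chain, measured 24.6 to 32.0 and 8.24 to 22.8 CPM (-1.0 ± 0.28, adjusted p = 0.013), and lost the call without *Bbs8*+/+ replicate 4 or *Bbs8*-/- replicate 2 (adjusted p up to 0.070). In these 3 genes the groups did not overlap, and *H2-Aa* had a value of -0.81 ± 0.28 that did not pass (adjusted p = 0.057).

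In the lists of immune cell markers, which do not hold the MHC class II genes, 0 genes passed the test. Of 18 microglia and macrophage markers 16 were tested, with 0 higher and 0 lower (against 5.46% and 6.8% of all tested genes). The summed level of the 18 was 373 to 474 CPM in the wild type and 353 to 400 CPM in the knockout (exact permutation test, two-sided, p = 0.23). Most of that sum came from *Csf1r* (278 to 386 against 235 to 274 CPM), whose groups did not overlap but which did not pass (log2 fold change -0.28 ± 0.10, adjusted p = 0.066), while the more restricted *Tmem119* measured 12.6 to 15.9 and 11.1 to 15.6 CPM and *Cx3cr1* 8.55 to 13.9 and 9.67 to 15.6 CPM. The groups of *Cd68* did not overlap either, with the knockout higher (2.03 to 5.97 against 6.81 to 8.21 CPM). That gene did not pass (log2 fold change 0.73 ± 0.49, edgeR adjusted p = 0.40). Of the 16 tested markers 9 had a positive and 7 a negative log2 fold change. The 11 lymphocyte and natural killer cell markers summed to 1.02 to 4.48 CPM in the wild type and 0 to 1.79 CPM in the knockout, and 0 of them passed the filter, so none was tested. Endothelial markers (7 tested) had 0 calls.

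Of 11 tested genes of reactive and Müller glia 5 were higher (45.5%, against 5.46% of all tested genes) and 0 lower (against 6.8%). The other 6 did not pass (*Vim* at -0.18 and *Cd44* at -0.27 on the log2 scale among them). The sum of the list was 5202 to 5832 CPM in the wild type and 7055 to 7350 CPM in the knockout (exact permutation test, two-sided, p = 0.0286). The 5 were *Gfap*, *Glul*, *Serpina3n*, *Apoe* and *Dkk3*, and most of the sum was *Apoe* (mean 4110 and 4856 CPM) and *Glul* (mean 1199 and 1709 CPM). The p-value of the sum therefore says little about the other genes of the list. Among the 6 that did not pass, positive log2 fold changes were those of *Aqp4* (1.93 ± 0.77), *Kcnj10* (1.59 ± 1.02), *Slc1a3* (0.82 ± 0.35) and *Lcn2* (0.24 ± 0.76). *Gfap*, the defining marker of reactive glia, was low in both groups, at 0 to 2.45 and 3.84 to 8.24 CPM, and *Serpina3n*, an acute-phase protease inhibitor, measured 5.20 to 8.58 and 397 to 454 CPM. Surface epithelium markers were also higher (4 of 5 tested, 80%, summed 42.1 to 62.3 and 118 to 148 CPM, p = 0.0286), and 2 of 7 fibroblast markers were lower (28.6%, summed 1040 to 1400 and 985 to 1163 CPM, p = 0.086, exact permutation test, two-sided). Of 12 RPE markers 3 were higher and 3 lower (25% each), and their summed level, most of which was *Ttr*, was 36635 to 37763 CPM in the wild type and 45239 to 48801 CPM in the knockout (exact permutation test, two-sided, p = 0.0286). The part of these cell types in the levels of the class I and interferon genes was not tested.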

How the data were processed

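RPE from P29 mice was profiled by QuantSeq 3′ mRNA sequencing in 4 *Bbs8*+/+ and 4 *Bbs8*-/- libraries. Per the study's methods, the authors trimmed the reads with BBDuk, aligned them with STAR to mm10 with an Ensembl annotation, and counted uniquely placed reads per gene with htseq-count. The strand setting is not given in the sources used here, and the RNA isolation section describes whole eyecups while the labels say isolated RPE cells. The deposited counts are whole numbers per gene, with no normalisation. Summary lines of the files (reads outside genes, in more than 1 gene, or placed more than once) were kept out of totals and tests: 17.0 to 20.6% of reads fell in no gene and 32.8 to 34.5% had no unique place.

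The main test on counts was that of edgeR 4.0.16 in R 4.3.3 (TMM, quasi-likelihood F test, no covariate), for genes at 1 CPM or more (unscaled) in at least 4 libraries, with Benjamini-Hochberg adjustment over 12889 genes. Printed CPM values are TMM-scaled. DESeq2 1.42.0 and the other settings of the closing section were alternatives. The procedure was tested on simulated data. The common biological coefficient of variation was 0.213. Gene positions, overlaps and shared 100-base windows came from GENCODE M21 on the same build (GRCm38), which may differ in detail from the annotation used for counting, and promoters from RefSeq.

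The members and lists were chosen with earlier results of these data known. Named were all 37 members, *Ttc8*, from each further list the called genes of largest log2 fold change (up to 5), the constitutive proteasome subunits, the interferon receptors and defining markers of other cell types; 1 gene named by this rule is not reported here. *Emc9*, *Rnf31*, *Psme2b*, *Ifit3b*, *Zbtb22*, *Gm15821*, *Gm20496* and *Gm11626* were added after the values were seen, for their overlap with members. Of the 158 further genes 6 symbols were not matched. No pair of libraries agreed within sampling noise (chi-square per degree of freedom 2.87 to 7.51 within groups). P-values measure the spread between these libraries.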

Additional observations from a re-analysis of the deposited data

Results flagged for a closer look

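In each genotype, the highest and lowest library of every one of the 37 genes and *Ttc8* was compared with the nearest of the other 3 by Dixon's rule for 4 samples, in 76 groups, of which 7 had a library that stood apart. For normally distributed values chance gives about 1 in 20 groups. That rate does not hold for low counts. A group with 1 library above 0 and the others at 0 is always flagged, as for *H2-T23* and *Nlrc5* below. The libraries within *Bbs8*+/+ were *Irf7* in replicate 1, at 11.5 CPM with the others at 3.68 to 4.85 CPM, *Parp14* in replicate 1, at 3.39 CPM with the others at 6.54 to 6.71 CPM, and *Nlrc5* in replicate 2, at 2.24 CPM (6 counts) with the others at 0. Within *Bbs8*-/- they were *Xaf1* in replicate 3, at 6.40 CPM with the others at 12.2 to 12.3 CPM, *Usp18* in replicate 1, at 4.11 CPM (10 counts) with the others at 0 to 0.400 CPM, *H2-T23* in replicate 1, at 0.821 CPM (2 counts) with the others at 0, and *Nlrc5* in replicate 3, at 0.400 CPM (1 count) with the others at 0. For *H2-T23*, *Nlrc5* and *Usp18* the values rest on 1 to 10 counts and the genes were not tested between the genotypes. Of the 7 genes that passed the test, 0 had a library that stood apart.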

How the results depend on the processing

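The 7 members were higher and 0 lower with DESeq2, scaling by library size, scaling without rod, lens and erythrocyte genes, no filter on low counts, a filter at 5 CPM and the replicate block. The 5 CPM filter counts libraries of both genotypes, and *Tap2* needed its knockout libraries to meet it. At an adjusted p of 0.01, 4 remained higher (*B2m*, *Gbp3*, *Psme1* and *Tap2*), and of the wider pathway 2 of 4. These 4 members passed an adjusted p of 0.05 in all 14 other fits. Leaving out 1 library gave 4 to 8 members higher, 2 to 5 wider pathway genes higher, and a member median of 0.30 to 0.48, lowest without *Bbs8*+/+ replicate 2. Scaling by library size moved the median of all genes to 0.11 and the share of higher calls among all calls from 44.5% to 60.5% (members' median 0.53).

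Directions changed among genes that had not passed, all members but *Ifngr2*: *Tapbp* was 0.079 under library size scaling and 0.0036 with the 5 CPM filter, and *Oasl2* was -0.13 with the replicate block. Leaving out 1 library gave *Tapbp* -0.059 to 0.064, *Psmb10* -0.33 to 0.19, *Rtp4* -0.68 to 0.23, *Irf7* -0.14 to 0.58, *Ifi27* -0.042 to 0.090, *Oasl2* -0.82 to 0.49, *Tap1* -0.32 to 0.14, *Parp14* -0.72 to 0.24, *Ifitm3* -0.20 to 0.0012, *Gbp2* -0.21 to 1.97 and *Ifngr2* -0.041 to 0.42.

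No pairing by replicate number was seen: the deviations of same-numbered libraries correlated at -0.03 to 0.01, and 1 of 4 wild-type libraries correlated best with its own number. Pairing by litter or batch was not tested. The replicate block gave 7 members higher and 0 lower (650 and 827 of all genes, against 704 and 877); *Tapbpl* had an adjusted p of 0.052. Members below about 5 CPM (9 of the 33 tested failed that filter) have standard errors that hide changes of the size of the called ones.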
